A study of Drosophila melanogaster with 18 samples.

Results

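The EGF receptor pathway was followed in Drosophila ovaries through 9 genes, the receptor Egfr, the ligand genes spi, Krn and vn, the ligand-processing protease genes stet and rho, and aos, kek1 and pnt, which the pathway is known to switch on. The genes were chosen by name from the pathway, with earlier results of these data known, and are 9 of the 14237 genes in the table. All 9 were among the 12762 genes with enough counts to be tested. RNA was measured in 18 libraries of 7 genotypes, each from about 100 pairs of ovaries hand dissected and pooled from newly eclosed females, an age at which ovaries lack late egg chambers. The wild type group held the reference strains Canton S (CS, n = 4) and yw (n = 3). By the study's methods the emerin alleles are in the yw background, so yw is the reference that matches them in background. The emerin group held 2 combinations of Ote alleles that the labels describe as null, G/PI (n = 2) and G/PK (n = 2). The G allele is a transposon insertion, PK a premature stop and PI a substitution of a single amino acid, and both combinations carry the G allele. The chk2, emerin females (n = 3) carried the G/PK alleles of emerin and were also null for the checkpoint kinase Chk2, the product of lok. The baf GLKD females (n = 2) carried an RNAi responder against baf under the nosgal4 driver, which acts in germ cells, so that somatic cells keep the gene. The nosgal4 females (n = 2) carried that driver alone. According to the labels the baf GLKD females were raised at 25 °C and all others at room temperature, in which case knockdown and temperature cannot be told apart, whereas the study's methods give the same temperature for all crosses.

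In Drosophila the EGF receptor is a tyrosine kinase that signals through Ras, Raf and MAP kinase to ETS transcription factors such as the activator Pnt. The ligands Spi, Krn and Grk are made as membrane-bound precursors that are released by rhomboid proteases, whereas Vn is secreted in an active form. In the germarium, Stet is the rhomboid protease of germ cells, and Spi released by it signals to the escort cells that wrap the dividing germ cells. Later, Grk from the oocyte signals to the follicle cells. The pathway switches on its own inhibitors, among them the secreted protein Aos and the membrane protein Kek1.

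Library totals ran from 18138657 to 28372959 estimated counts, and expression is given below as CPM, the counts scaled to a common library size by TMM, as mean ± SD. A gene was called when its adjusted p was under 0.05 in edgeR's quasi-likelihood test with Benjamini-Hochberg adjustment over all genes tested. The study's methods describe the replicates as independent RNA isolates. Ote, the targeted emerin gene, was at 64.8 to 85.3 CPM in wild type, 11.7 to 59 CPM in emerin and 21.6 to 23.1 CPM in chk2, emerin, and its log2 fold change of -1.33 in emerin was called (adjusted p = 0.00175). The log2 fold change of lok in chk2, emerin against wild type was -3.89 and called (adjusted p = 9.05e-08). By contrast baf in whole ovaries of baf GLKD was at 69.4 ± 4.28 CPM against 98 ± 17 CPM in nosgal4, a difference that was not called (adjusted p = 0.261). Lower levels were not confined to the targeted genotypes. In emerin lok was at 75 ± 30.6 CPM against 228 ± 22 CPM in wild type, and in baf GLKD at 141 ± 5.25 CPM against 266 ± 28.2 CPM in nosgal4. In chk2, emerin baf was also called lower, at 67.1 ± 13.5 CPM against 117 ± 37.2 CPM in wild type. The summed CPM of 9 germ cell markers was 3210 to 4980 in wild type, 4540 to 4600 in nosgal4, 454 to 1590 in emerin, 1730 to 1920 in baf GLKD and 4280 to 4420 in chk2, emerin. In emerin 7 of these 9 genes fell, and bgcn and Rbp9 rose. Within the emerin group the first G/PI library stood apart at 1590 CPM, against 454 to 626 CPM in the other three. Over the same 5 groups the summed CPM of 7 muscle markers was 3150 to 6370, 2510 to 3390, 26100 to 29000, 13100 to 14900 and 3780 to 4820, and all 7 rose in emerin. The 7 hemocyte, 5 fat body and 4 tracheal or epidermal markers also rose in emerin, with summed CPM of 1020 to 1810, 630 to 1860 and 112 to 232 against 109 to 317, 47.7 to 343 and 30.5 to 80.1 in wild type. Of these only Osi6, at 0 in wild type, nosgal4 and chk2, emerin, and Cpr49Aa, at 0 in chk2, emerin, were absent from a group. In whole-ovary RNA, fewer cells of a type and less RNA per cell cannot be told apart.

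Per transcript length, the germ line protease gene stet was the most abundant of the 9 genes in wild type, and the ligand gene spi in emerin. In the deposited TPM, a transcript level scaled for length and depth, wild type (n = 7) held 64.4 ± 8.87 TPM of stet, 37.7 ± 11.6 of spi, 16.1 ± 6.33 of Egfr, 13.4 ± 2.91 of pnt, 12 ± 6.98 of kek1 and 10.3 ± 1.78 of Krn. The feedback inhibitor gene aos, at 2.11 ± 0.39 TPM, the ligand gene vn, at 1.09 ± 0.518 TPM, and rho, at 0.609 ± 0.259 TPM, were the lowest. In emerin (n = 4) spi led at 60.3 ± 9.8 TPM, stet stood at 13.3 ± 11.8 TPM and kek1 at 5.46 ± 2.3 TPM. The low genes were higher there, with aos at 6.98 ± 2.13 TPM, vn at 5.76 ± 2.43 TPM and rho at 1.61 ± 0.397 TPM.

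**Figure D1:**
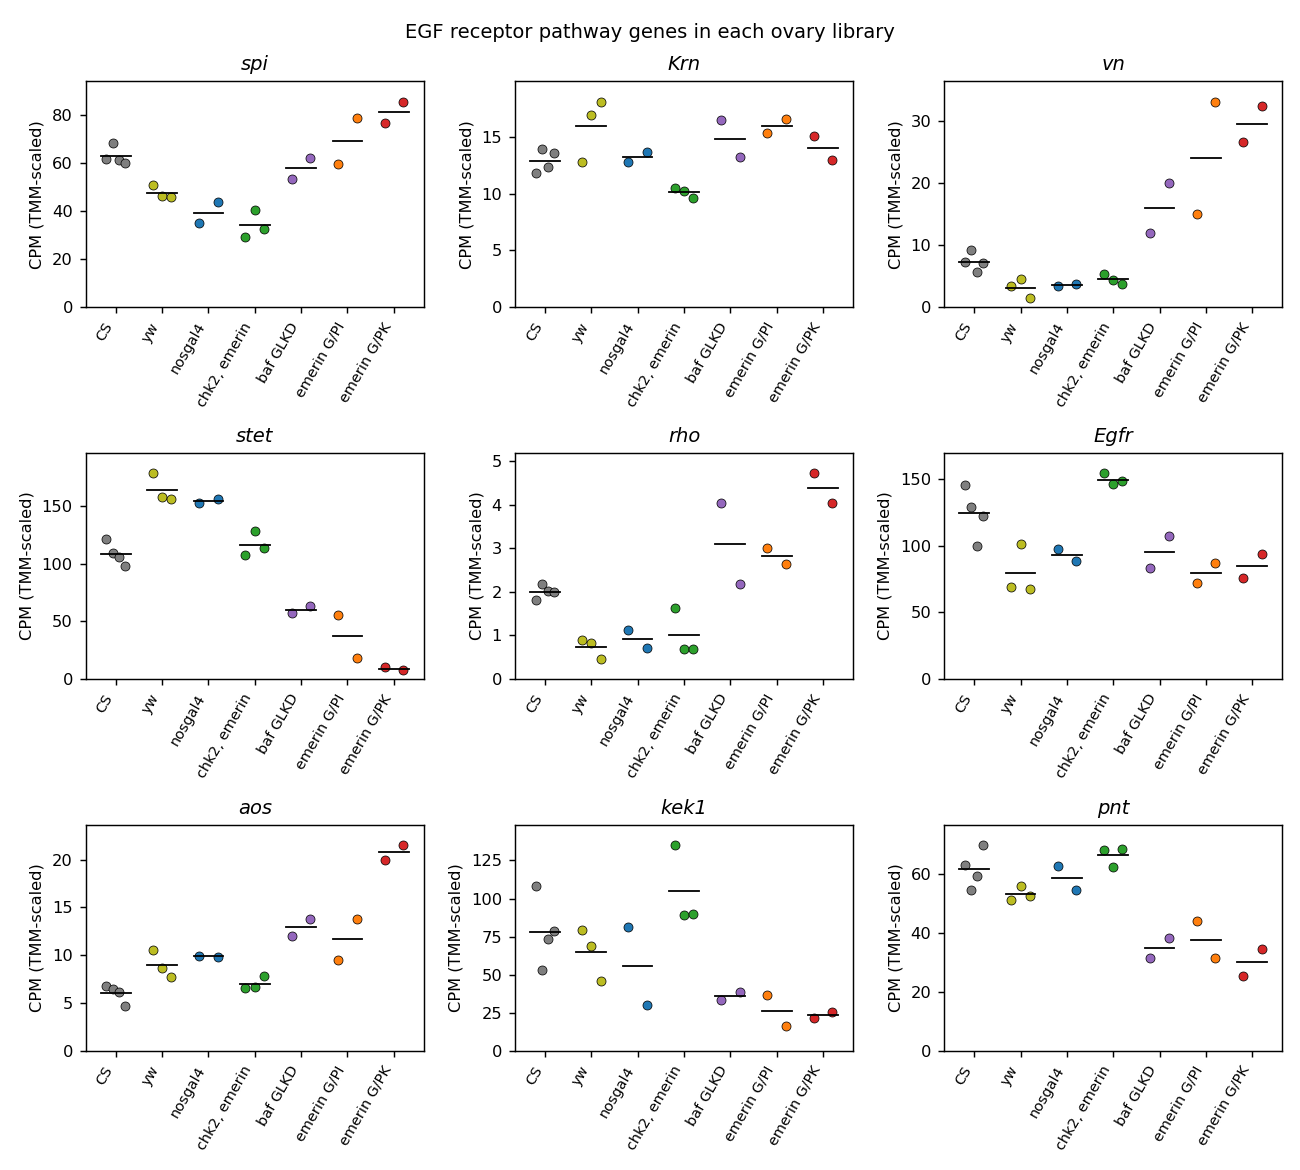
Level of each EGF receptor pathway gene in each of the 18 ovary libraries, in TMM-scaled CPM (y axis, from 0) by genotype (x axis). Points are libraries and lines are genotype means; stet and pnt are low and vn is high in the emerin and baf GLKD libraries, and kek1 is low in emerin while its baf GLKD libraries lie between those of nosgal4.

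To ask which of these genes change without emerin, emerin was compared with wild type. Of the 9 genes, 4 rose (vn, rho, aos and spi) and 3 fell (stet, kek1 and pnt), while Egfr and Krn did not pass the test. Over all genes tested 54.9% were called in this comparison, 28.3% higher and 26.6% lower, so a count of 7 of 9 is to be read against a background in which most genes changed. The libraries of both groups did not overlap for 5 of the 9 genes, against 37.1% of all genes. The median log2 fold change of the 9 genes was 0.08, and that of all genes was 0.12.

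Among the ligands the largest difference was in vn, which encodes the secreted neuregulin-like ligand. It ran from 1.48 CPM, with a median of 5.74, to 9.32 CPM in wild type, whereas emerin G/PI held 15.1 and 33.2 CPM and emerin G/PK 26.7 and 32.5 CPM. Every emerin library was thus above every wild-type library. The log2 fold change was 2.26 ± 0.35 (SE, adjusted p = 4.78e-05), a 4.8-fold rise. In baf GLKD vn stood at 12 and 20 CPM against 3.49 and 3.72 CPM in nosgal4. This rise of 2.15 ± 0.60 on the log2 scale was called (adjusted p = 0.0181) and was not called without nosgal4 replicate 1 (2.10, adjusted p = 0.101), without nosgal4 replicate 2 (2.19, adjusted p = 0.101) or without baf GLKD replicate 2 (1.70, adjusted p = 0.11). In chk2, emerin vn was at 5.37, 4.4 and 3.77 CPM, inside the wild-type range. Over the 18 libraries vn followed the muscle marker sum with r = 0.94 and the germ cell marker sum with r = -0.91. These libraries share genotype and preparation, and the part of muscle RNA in the rise of vn was not tested.

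The spi gene, which encodes the main membrane-bound ligand, differed less. Wild type held 45.7 to 68.5 CPM with a median of 60 CPM, and emerin held 59.8, 78.6, 76.6 and 85.6 CPM. The groups overlapped through G/PI replicate 1, which lay among the CS libraries. The rise of 0.41 ± 0.14 on the log2 scale was called (adjusted p = 0.0165). It was not called against CS alone (0.26, adjusted p = 0.117), with G/PI alone as emerin (0.25, adjusted p = 0.294), or without G/PI replicate 2 (0.33, adjusted p = 0.0863), G/PK replicate 1 (0.35, adjusted p = 0.0681) or G/PK replicate 2 (0.29, adjusted p = 0.118). In chk2, emerin, at 29.4, 40.3 and 32.5 CPM, spi was below every wild-type library. It was the only member called between chk2, emerin and wild type, with a log2 fold change of -0.73 ± 0.16 (adjusted p = 0.013), in a comparison where 7.58% of all genes were called and 4.76% were called lower. Libraries of these groups did not overlap for 3 members (spi, Krn and Egfr), against 13.5% of all genes. That call was not made without chk2, emerin replicate 1 (-0.63, adjusted p = 0.103), without replicate 3 (-0.69, adjusted p = 0.0792) or against yw alone (-0.47, adjusted p = 0.0672). The nosgal4 libraries, at 34.9 and 43.9 CPM, were also below every wild-type library without a call (-0.52 ± 0.18, adjusted p = 0.334), and baf GLKD held 53.4 and 62.2 CPM (0.55 ± 0.22 against nosgal4, adjusted p = 0.0846).

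Krn, which encodes a ligand related to Spi, had the narrowest range of the ligand genes, from 9.62 to 18.1 CPM over all 18 libraries. Wild type ran from 11.8 through a median of 13.6 to 18.1 CPM and emerin held 15.3, 16.6, 15.1 and 13 CPM, fully inside it. The log2 fold change was 0.08 ± 0.14 (adjusted p = 0.647). The 3 chk2, emerin libraries, at 10.5, 10.2 and 9.62 CPM, were the lowest of the series without a call against wild type (-0.49 ± 0.16, adjusted p = 0.0668). The call was made without CS replicate 1 (-0.55, adjusted p = 0.0428), against yw alone (-0.64, adjusted p = 0.0276) and by DESeq2 (-0.47, adjusted p = 0.0185). Exons of Krn overlap those of Ndfip on the same strand, so reads could be divided between the 2 genes and its values are less certain than those of the other members, whose exons overlap no other gene.

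The gene stet, which encodes the germ cell rhomboid protease, had the largest fall. Wild type ran from 97.5 CPM through a median of 121 CPM to 178 CPM. Emerin G/PI held 55.8 and 17.9 CPM and emerin G/PK 10.3 and 7.91 CPM. All 4 emerin libraries were below wild type and the first G/PI library, at 55.8 CPM, was the highest of them. The log2 fold change was -2.52 ± 0.42 (adjusted p = 1.12e-04), a level 5.75-fold lower in emerin, and with G/PK alone as emerin it was -3.86. In baf GLKD stet was at 57.1 and 62.8 CPM against 152 and 156 CPM in nosgal4, without overlap, and the difference of -1.36 ± 0.61 was not called (adjusted p = 0.124). It was called without emerin G/PI replicate 1, which enters only the shared estimate of spread (adjusted p = 0.00958), and with only baf GLKD and nosgal4 in the fit (-1.40, adjusted p = 0.0127). In chk2, emerin the 3 libraries held 107, 128 and 113 CPM, all inside the wild-type range (-0.20 ± 0.42, adjusted p = 0.801).

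The level of stet followed the summed CPM of the germ cell markers. The largest parts of this sum in wild type were osk, at 1690 ± 352 CPM, and orb, at 935 ± 210 CPM. In emerin osk ran from 68.3 to 823 CPM and orb from 49.9 to 229 CPM. Of the markers in the sum, bgcn and Rbp9 went the other way. Over the 18 libraries the correlation of stet with the summed germ cell markers was r = 0.98, given as a description since the libraries fall into genotypes. Per 1000 CPM of germ cell markers, stet was at 29.9 to 43.4 CPM in wild type, 33 and 34.2 in nosgal4, and 32.9 and 32.8 in baf GLKD. On this scale baf GLKD was thus inside the wild-type range. G/PI held 35.2 and 28.6 and G/PK held 20 and 17.4. All emerin libraries but G/PI replicate 1 thus stood below the wild-type range also on this scale, with G/PI replicate 2 close to its lower end. The chk2, emerin libraries were at 24.1, 29.8 and 25.5, at or below the lowest wild-type value. How much of the fall of stet is a fall in germ cells was not tested.

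**Figure D2:**
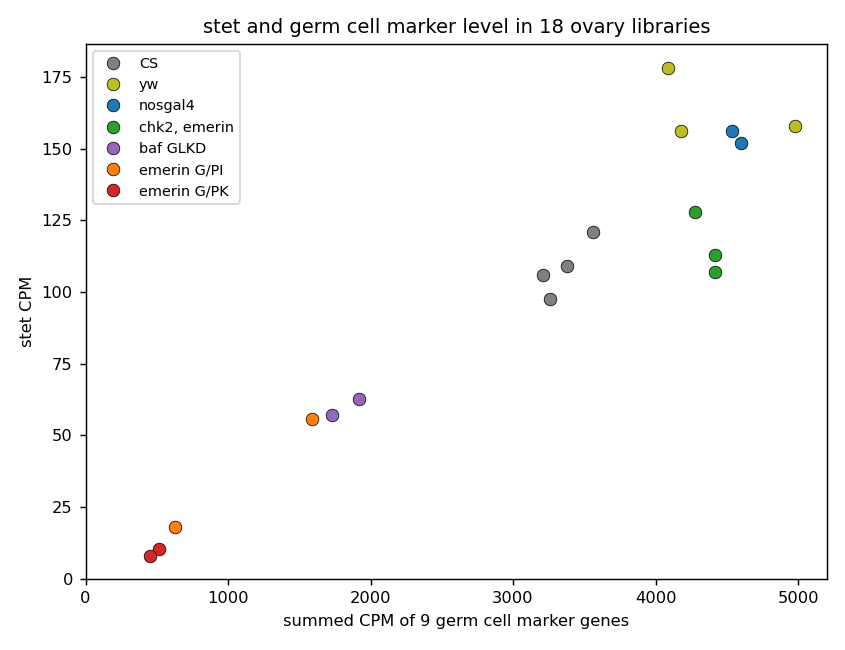
CPM of stet (y axis) against the summed CPM of 9 germ cell marker genes (x axis) in 18 libraries, coloured by genotype, with both axes from 0. Libraries run from emerin G/PK, with stet at 7.91 and 10.3 CPM, through baf GLKD to yw, with stet up to 178 CPM, and chk2, emerin lies to the right of CS at like stet.

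The gene of the other protease, rho, went the opposite way at a very low level. It was covered by 8 to 104 estimated counts per library. Wild type held 0.455 to 2.19 CPM with a median of 1.81 CPM, and emerin held 3.01, 2.64, 4.72 and 4.03 CPM. All 4 emerin libraries were above wild type, and the rise of 1.30 ± 0.40 on the log2 scale was called (adjusted p = 0.0122). It was not called against CS alone (0.84, adjusted p = 0.0513), with G/PI alone as emerin (0.90, adjusted p = 0.186) or without G/PK replicate 1 (1.09, adjusted p = 0.0514). Nor was it called over the 11 libraries whose transcript tables match the gene table (1.28). Against yw alone it was 2.25. In baf GLKD rho was at 4.03 and 2.18 CPM against 1.12 and 0.709 CPM in nosgal4 (1.76 ± 0.68, adjusted p = 0.0772), a difference called without yw replicate 3 (adjusted p = 0.0475) and by DESeq2 (1.83, adjusted p = 0.0252). In chk2, emerin it was at 1.63, 0.685 and 0.685 CPM (-0.54 ± 0.47 against wild type, adjusted p = 0.486). The genes rho and stet are neighbours on chromosome arm 3L, 6493 bases apart with Naa30B and Ptp61F reaching into the interval, and they moved in opposite directions.

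The receptor gene Egfr was not called between emerin and wild type. Wild type ran from 67.6 CPM through a median of 101 CPM to 145 CPM, and emerin held 71.9, 86.9, 75.6 and 93.3 CPM. The emerin libraries lay inside the wild-type range, and the log2 fold change was -0.35 ± 0.19 (adjusted p = 0.115). The value differed with the reference strain and was -0.60 against CS alone (adjusted p = 0.00158) and 0.01 against yw alone (adjusted p = 0.971). The call was also made without yw replicate 1 (-0.43, adjusted p = 0.039) or yw replicate 3 (-0.44, adjusted p = 0.0381). In chk2, emerin, at 154, 146 and 148 CPM, Egfr was above all other libraries, without a call against wild type (0.51 ± 0.20, adjusted p = 0.118). Against yw alone the difference was 0.93 and called (adjusted p = 0.00648). In baf GLKD it held 82.9 and 107 CPM against 97.1 and 88.1 CPM in nosgal4 (0.04 ± 0.29, adjusted p = 0.949).

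Of the genes known to be switched on by the pathway, kek1 and pnt fell and aos rose in emerin, with all transcripts of a gene counted together. The kek1 gene encodes a membrane protein that binds the receptor and blocks it. It was at 45.7 to 108 CPM in wild type, with a median of 73.2 CPM, and at 36.6, 16, 21.8 and 25.4 CPM in emerin. The groups did not overlap, and the log2 fold change was -1.54 ± 0.29 (adjusted p = 3.41e-04), a level 2.9-fold lower. The nosgal4 replicates of kek1 differed widely, at 81.6 and 30.1 CPM. The baf GLKD libraries, at 33.4 and 38.5 CPM, lay between these, and the difference of -0.63 ± 0.44 was not called (adjusted p = 0.316) and changed sign without nosgal4 replicate 1 (0.26, adjusted p = 0.73). In chk2, emerin kek1 was at 135, 89.3 and 89.9 CPM, with no call against wild type (0.53 ± 0.29, adjusted p = 0.269).

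The pnt gene, which encodes the ETS activator that acts downstream of the receptor, had a smaller but steadier fall. Wild type ran from 51.1 CPM through a median of 55.8 CPM to 69.6 CPM, and emerin held 43.9, 31.4, 25.4 and 34.6 CPM. The groups did not overlap, and the log2 fold change was -0.78 ± 0.13 (adjusted p = 1.32e-04). In baf GLKD pnt was at 31.3 and 38.2 CPM against 62.7 and 54.3 CPM in nosgal4. This fall of 0.75 on the log2 scale (SE 0.21) was called (adjusted p = 0.0181) and was not called without nosgal4 replicate 1 (-0.64, adjusted p = 0.11), nosgal4 replicate 2 (-0.85, adjusted p = 0.0507) or baf GLKD replicate 1 (-0.67, adjusted p = 0.125). The chk2, emerin libraries, at 68, 62.3 and 68.2 CPM, were within the wild-type range (0.19 ± 0.14, adjusted p = 0.411).

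The aos gene encodes the secreted inhibitor that binds Spi. It held 4.7 to 10.5 CPM in wild type with a median of 6.79 CPM, and 9.49, 13.8, 20 and 21.5 CPM in emerin. Only G/PI replicate 1, at 9.49 CPM, lay inside the wild-type range, and the rise of 1.15 ± 0.22 on the log2 scale was called (adjusted p = 3.55e-04). With G/PI alone as emerin it was 0.64 and not called (adjusted p = 0.0589). In baf GLKD aos was at 12 and 13.8 CPM against 9.95 and 9.84 CPM in nosgal4 (0.38 ± 0.36, adjusted p = 0.473), and in chk2, emerin at 6.59, 6.7 and 7.8 CPM (-0.05 ± 0.25 against wild type, adjusted p = 0.929).

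Both falling genes also followed the germ cell marker sum, with r = 0.80 for kek1 and r = 0.87 for pnt over the 18 libraries, and aos ran against it with r = -0.80. The summed CPM of 10 somatic markers (genes of escort, cap and follicle cells) was 330 to 731 in wild type and 909 to 1320 in emerin, where 5 of the 10 rose and tj fell. Between wild type and emerin, zfh1 went from 66.8 ± 37.8 to 332 ± 111 CPM and Fas3 from 132 ± 40.3 to 436 ± 70.2 CPM. By contrast tj went from 152 ± 55.6 to 72.4 ± 29.4 CPM. Values scaled to this sum therefore depend on which markers it holds. Per 1000 CPM of somatic markers kek1 was at 102 to 209 in wild type and 13.2 to 40.2 in emerin, and pnt at 82.7 to 169 and 19.3 to 48.3. On this scale aos was at 6.43 to 26.1 in wild type and 10.4 to 16.3 in emerin, which overlap. Egfr, whose CPM overlapped, was at 127 to 309 in wild type and 57.5 to 79.2 in emerin on this scale, without overlap, and vn, whose CPM did not overlap, was at 4.16 to 22.2 and 16.6 to 27.5, which overlap. What share of these differences comes with the makeup of the tissue was not tested.

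**Figure D3:**
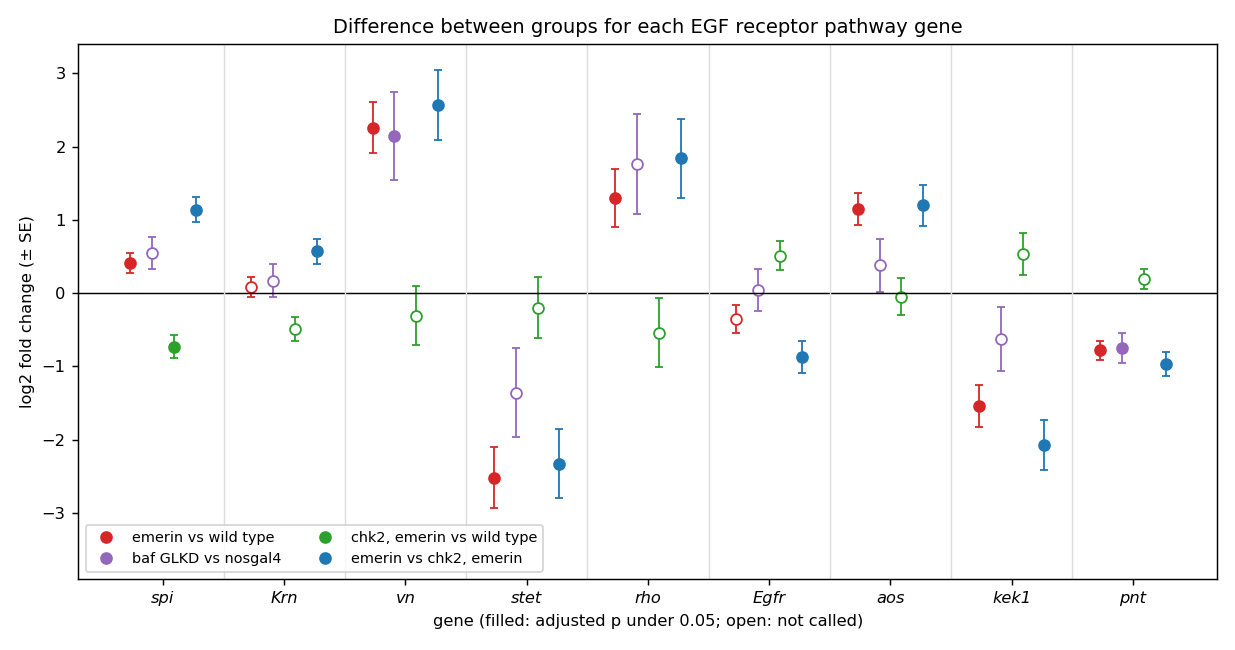
Log2 fold change with its SE (y axis) of the 9 genes (x axis) in 4 comparisons, with filled points for adjusted p under 0.05 and open points for genes not called. In emerin against wild type vn stands at 2.26 and stet at -2.52, and in chk2, emerin against wild type only spi, at -0.73, is filled.

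Loss of Chk2 in the emerin background was examined by comparing emerin with chk2, emerin, which shared the emerin libraries with the comparison above. All 9 genes were called, 5 higher and 4 lower in emerin, against 49.1% of all genes (26.4% higher and 22.7% lower), and none overlapped between the groups, against 57.6% of all genes. The higher genes were vn (2.57 ± 0.48, adjusted p = 3.03e-04), rho (1.84 ± 0.54, adjusted p = 0.00924), aos (1.20 ± 0.28, adjusted p = 0.0023), spi (1.14 ± 0.17, adjusted p = 5.03e-05) and Krn (0.57 ± 0.17, adjusted p = 0.0117). The lower genes were stet (-2.33 ± 0.47, adjusted p = 6.01e-04), kek1 (-2.07 ± 0.34, adjusted p = 9.69e-05), pnt (-0.97 ± 0.16, adjusted p = 9.19e-05) and Egfr (-0.87 ± 0.22, adjusted p = 0.00405). Egfr and Krn, not called against wild type, were thus called against the double mutant, where Egfr was above and Krn below every wild-type library. Krn was not called without G/PI replicate 2 (0.47, adjusted p = 0.0571). With G/PK alone, the same emerin alleles as in the double mutant, Krn was not called either (0.48, adjusted p = 0.077), and stet was at -3.67. With G/PI alone, rho (1.44, adjusted p = 0.0852) and aos (0.68, adjusted p = 0.0846) were not called, leaving 7 members.

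Germline loss of BAF was compared with the driver alone. Of the 9 genes vn rose and pnt fell, a count of 2 called in a comparison where 21.5% of all genes were called, 13.3% higher and 8.28% lower. Libraries did not overlap for 6 of the 9 genes, against 64.8% of all genes with 2 libraries a group. Whether emerin loss and BAF loss differ was tested as the difference between both effects. No member was called (edgeR), none had an unadjusted p under 0.05, and DESeq2 called 0 of 9, while over all genes 0.047% were called. The estimates with the largest size were -1.16 ± 0.72 for stet (adjusted p = 0.757), -0.90 ± 0.52 for kek1 (adjusted p = 0.729) and 0.78 ± 0.43 for aos (adjusted p = 0.707). Without emerin G/PI replicate 1 the difference for stet was -2.17 and called (adjusted p = 0.0356), and with G/PK alone it was -2.50 (adjusted p = 0.0042).

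Both emerin allele combinations were compared to see how far the pooled group was uniform. Only stet was called, 2.02 ± 0.35 higher on the log2 scale in G/PI (adjusted p = 0.0128), against 0.697% of all genes called and 0.611% called higher. It rested on G/PI replicate 1, without which it was 1.00 (adjusted p = 0.0684). It was not called either without G/PK replicate 1 (2.24, adjusted p = 0.0737) or G/PK replicate 2 (1.88, adjusted p = 0.288), or with only these 2 genotypes in the fit (2.00, adjusted p = 0.453). The germ cell marker sum of that G/PI library was also above those of the other emerin libraries. Of the emerin libraries it alone had a gene table total well above its transcript table total, at 12.35 times. Without the 7 libraries of that kind, stet in emerin against wild type was at -3.38 on the log2 scale. Whether this set of libraries bears on the level of stet was not tested. For aos, at 9.49 and 13.8 CPM in G/PI and 20 and 21.5 CPM in G/PK, the libraries did not overlap and the difference of -0.83 ± 0.23 was not called (adjusted p = 0.175).

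In the main fit the reference strains themselves differed for 3 of the 9 genes. Egfr (0.65 ± 0.17, adjusted p = 0.0206), vn (1.21 ± 0.35, adjusted p = 0.0373) and rho (1.45 ± 0.38, adjusted p = 0.0246) were higher in CS than in yw, 3 of 9 against 12.4% of all genes called and 6.37% called higher. In rho the 4 CS libraries held 1.81 to 2.19 CPM and the 3 yw libraries 0.455 to 0.903 CPM. The opposite direction was seen without a call for stet, at 97.5 to 121 CPM in CS and 156 to 178 CPM in yw (-0.59 ± 0.25, adjusted p = 0.135), and for aos, at 4.7 to 6.79 and 7.74 to 10.5 CPM (-0.57 ± 0.18, adjusted p = 0.0502). The call for Egfr was not made without CS replicate 1, yw replicate 1 or yw replicate 3 (0.55 to 0.56, adjusted p = 0.068 to 0.0941), and that for rho not without yw replicate 3 (1.21, adjusted p = 0.087). The call for vn was lost without any of 7 libraries (CS replicates 1, 2 and 4, yw replicates 1 and 3, and either G/PK replicate), with values of 0.88 to 1.27 and adjusted p of 0.0524 to 0.108. The calls for stet and aos were made without either G/PI library (adjusted p = 0.00361 and 0.00369 for stet, 0.0316 and 0.0331 for aos). With only CS and yw in the fit, Egfr (adjusted p = 0.0969), vn (adjusted p = 0.105) and rho (adjusted p = 0.0504) were not called. In that fit stet was called (-0.60, adjusted p = 0.0377). From transcript tables Egfr (0.57, adjusted p = 0.081), vn (0.62, adjusted p = 0.438) and rho (0.74, adjusted p = 0.449) were not called. Between nosgal4 and wild type no member was called (edgeR), 1 had an unadjusted p under 0.05 and DESeq2 called 0 of 9, while 0.196% of all genes were called.

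Ranked by genotype mean, the 9 genes gave differing orders. For vn the order was emerin G/PK (29.6 CPM), emerin G/PI (24.2), baf GLKD (16), CS (7.38), chk2, emerin (4.51), nosgal4 (3.61) and yw (3.17), in which the first 2, the next pair (G/PI and baf GLKD) and the last 2 overlapped. For stet it was yw (164 CPM), nosgal4 (154), chk2, emerin (116), CS (109), baf GLKD (59.9), emerin G/PI (36.9) and emerin G/PK (9.09), in which only chk2, emerin and CS overlapped. For pnt the upper genotypes were chk2, emerin (66.2 CPM), CS (61.6), nosgal4 (58.5) and yw (53.1), which overlapped as neighbours and stood apart from emerin G/PI (37.6), baf GLKD (34.8) and emerin G/PK (30). For kek1 every pair of neighbours overlapped, from chk2, emerin (105 CPM), CS (78.3), yw (64.6) and nosgal4 (55.8) to baf GLKD (36), emerin G/PI (26.3) and emerin G/PK (23.6). For spi the order was emerin G/PK (81.1 CPM), emerin G/PI (69.2), CS (62.9), baf GLKD (57.8), yw (47.6), nosgal4 (39.4) and chk2, emerin (34.1), with yw apart from both neighbours and the rest overlapping.

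For rho emerin G/PK (4.38 CPM) stood apart above baf GLKD (3.11) and emerin G/PI (2.83), which overlapped, then CS (2.01) stood apart from both sides, and chk2, emerin (0.999), nosgal4 (0.916) and yw (0.726) overlapped. For aos emerin G/PK (20.7 CPM) stood apart, and baf GLKD (12.9), emerin G/PI (11.7), nosgal4 (9.89), yw (8.94), chk2, emerin (7.03) and CS (6.02) each overlapped the next. For Egfr chk2, emerin (149 CPM) stood apart, and CS (124), baf GLKD (95.1), nosgal4 (92.6), emerin G/PK (84.4), emerin G/PI (79.4) and yw (79) each overlapped the next. For Krn chk2, emerin (10.1 CPM) stood apart at the lower end, below CS (12.9), nosgal4 (13.2), emerin G/PK (14), baf GLKD (14.9), yw (15.9) and emerin G/PI (16), which each overlapped the next.

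The transcript tables show which start sites carried these levels. They were compared only over the 11 libraries whose transcript tables match the gene table, since in the other 7 they total 7.42 to 18.87 times less. The spi gene has 5 annotated transcripts from 3 start sites, and in emerin the difference lay at the distal start. Transcripts spi-RA and spi-RF, which start at position 19577315 of arm 2L, were at 15.9, 22.1 and 10.6 TPM in the wild-type libraries (CS replicates 3 and 4 and yw replicate 3). In emerin they were at 46.6, 47 and 50.4 TPM (G/PI replicate 2 and both G/PK replicates), all above wild type. The proximal transcripts spi-RB and spi-RE, which start at 19572610, were at 16.5 to 26.3 TPM in wild type and 14.2 to 18 TPM in emerin, and these ranges overlap.

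As a share of spi TPM the distal start had 37.4% to 50.4% in wild type and 72.3% to 76.6% in emerin. The share was 39.4% in nosgal4 and 59.4% in baf GLKD, with 1 library each, and 58.8%, 36.9% and 48.7% in chk2, emerin. In the reduced tables, where the distal start had only 43.6 to 165 estimated counts, the picture was less clear, with 37.2% to 58.1% in wild type, 65.8% in nosgal4, 81.7% in baf GLKD and 36.1% in emerin G/PI replicate 1. That G/PI library also had the lowest spi of the emerin group in the gene table. These shares are estimates of kallisto for overlapping transcripts and were not tested.

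**Figure D4:**
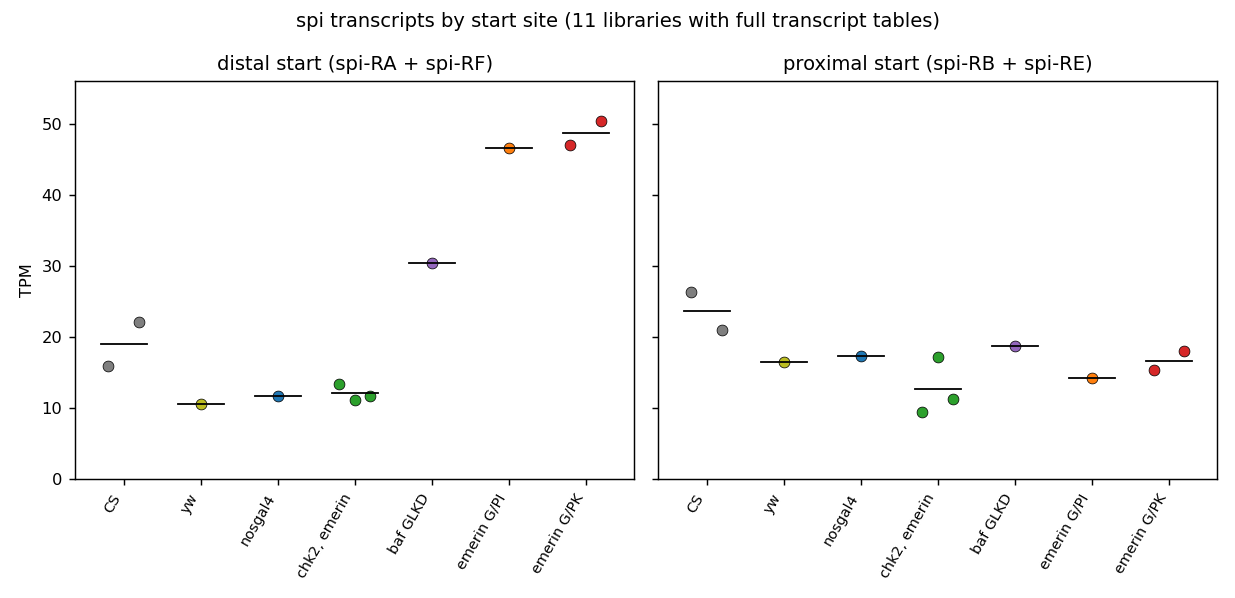
TPM (y axis, from 0) of spi transcripts of the distal start (left) and the proximal start (right) by genotype (x axis) in 11 libraries with full transcript tables. Points are libraries and lines are means; at the distal start emerin lies at 46.6 to 50.4 TPM and wild type at 10.6 to 22.1 TPM.

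For the other members with several starts the transcripts gave a simpler picture. Of stet, 97.9% to 99.6% of TPM was stet-RA in the matching wild-type libraries and 89.8% to 95% in emerin, and stet-RA itself was at 54.1 to 71.4 TPM and 4.62 to 10.4 TPM. The rare stet-RB was at 0.245 to 1.5 TPM and 0.437 to 0.675 TPM. Of pnt, which has 4 transcripts from 3 starts, pnt-RB was at 6.24 to 15.8 TPM in wild type and at 4.52 to 5.78 TPM in emerin, without overlap. The other pnt starts overlapped between these groups, with pnt-RD at 0.157 to 4.06 and 1.66 to 3.74 TPM and pnt-RC with pnt-RE at 0.762 to 2.39 and 1.46 to 2.3 TPM. With CS and yw pooled, only the start of pnt-RB was thus lower in emerin without overlap. The strains differed in start use, with pnt-RD at 0.157 and 0.633 TPM in CS and 4.06 TPM in yw replicate 3. Against that single yw library every emerin library was lower at all 3 starts. Which pnt transcripts the pathway switches on was not examined, so the fall of the whole gene need not be that of a target transcript. Of Egfr, the second transcript Egfr-RB made up 7.89% to 27.1% in wild type and 29.8% to 35.8% in emerin. Krn, vn, rho, aos and kek1 each have 1 annotated start.

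Other genes of the pathway changed in differing directions, counted over lists by role. In emerin against wild type, 28.3% of all genes were called higher and 26.6% lower, with a median log2 fold change of 0.12. Of 8 further genes listed for ligands and their processing, 1 rose and 1 fell in emerin, a smaller share than over all genes, and the median was -0.23. The gene that rose was Cow, which is not a ligand or processing gene of the receptor. S, which encodes the chaperone Star that moves ligand precursors to the protease, was at 49.1 ± 9.03 CPM in emerin (n = 4) against 132 ± 29.2 in wild type (n = 7), a fall of 1.43 on the log2 scale (adjusted p = 4.36e-05). Cow, whose product carries Wingless, rose by 1.59 (adjusted p = 0.0119) at a low level of 1.69 ± 0.497 against 0.554 ± 0.404 CPM. The rhomboid relative rho-4 stood at 73.9 ± 7.44 against 65.1 ± 5.22 CPM (0.18, adjusted p = 0.0921). The oocyte ligand gene grk, at 50.8 ± 4.54 CPM in emerin and 58.9 ± 5.67 CPM in wild type, was not called (-0.21, adjusted p = 0.206). None of the 8 was called in baf GLKD against nosgal4, where 1 had an unadjusted p under 0.05 and DESeq2 called 1, or in chk2, emerin against wild type, where 3 had an unadjusted p under 0.05 and DESeq2 called 1.

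Of 14 genes that carry the signal from the receptor to MAP kinase, 2 rose and 4 fell in emerin, also a smaller share than the 54.9% of all genes called, with a median of -0.13. Raf, which encodes the kinase below Ras, fell from 56.5 ± 4.2 to 36.1 ± 1.87 CPM (-0.65, adjusted p = 1.27e-05). The adaptor gene drk rose from 114 ± 20 to 185 ± 22.6 CPM (0.70, adjusted p = 2.99e-04), and dos, which encodes a docking protein, fell from 90.4 ± 18.4 to 48.7 ± 11.6 CPM (-0.89, adjusted p = 8.13e-04). Raf was also the only gene of this list called in baf GLKD, at 44.7 ± 7.28 CPM against 66.1 ± 0.786 CPM in nosgal4 (-0.57, adjusted p = 0.00851).

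Of 17 tested genes of 18 that restrain the pathway, 1 rose and 5 fell in emerin, again fewer than the 54.9% over all genes, with a median of -0.19. RasGAP1, which encodes a Ras GTPase activator, fell from 114 ± 21.6 to 60.6 ± 4.19 CPM (-0.92, adjusted p = 3.78e-05). Mkp3, which encodes a MAP kinase phosphatase, fell from 70 ± 7.03 to 35.6 ± 9.86 CPM (-0.98, adjusted p = 4.85e-05). The kek1 relative kek2 rose from 0.51 ± 0.23 to 3.91 ± 0.186 CPM (2.92, adjusted p = 1.1e-05), and in baf GLKD it stood at 3.38 ± 0.814 against 0.512 ± 0.411 CPM (2.70, adjusted p = 0.00976). Thus kek1 and kek2 were called in opposite directions in emerin, and aos rose while Mkp3 and RasGAP1 fell. Against chk2, emerin 2 of the 17 were higher and 8 lower in emerin, with 26.4% of all genes called higher and 22.7% lower.

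A further list held 10 genes taken to answer to the receptor in ovarian or other tissues. Of these 7 rose and 2 fell in emerin, against 28.3% and 26.6% of all genes, with a median of 1.42 against 0.12 over all genes. In baf GLKD 3 of the 10 rose, against 13.3% of all genes, with a median of 1.68 against 0.11. The list was not split by direction of response, so its median is no measure of receptor activity. Only mirr, br and pip were listed as answering in follicle cells, and dally in escort cells. Of them br and pip fell in emerin, dally rose and mirr was not called. Mmp1, which encodes a matrix metalloproteinase, rose from 51.8 ± 10.7 to 153 ± 43.4 CPM (1.56, adjusted p = 2.4e-05) and in baf GLKD stood at 139 ± 13.6 against 29.5 ± 13.6 CPM (2.23, adjusted p = 0.00105). The gene sog, which encodes a BMP-binding protein, rose from 28.2 ± 10.9 to 69.1 ± 8.51 CPM (1.29, adjusted p = 2.54e-04). The transcription factor gene rib was at 0 to 0.305 CPM in wild type, at 1.4 to 4.07 CPM in emerin (adjusted p = 9.97e-05) and at 0 in all chk2, emerin libraries. In chk2, emerin against wild type none of the 10 was called (edgeR), with 3 at an unadjusted p under 0.05 and 1 called by DESeq2. Several genes of this list are also expressed in other tissues, and the muscle, hemocyte and fat body marker sums given above moved with them, whose part was not tested.

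**Figure D5:**
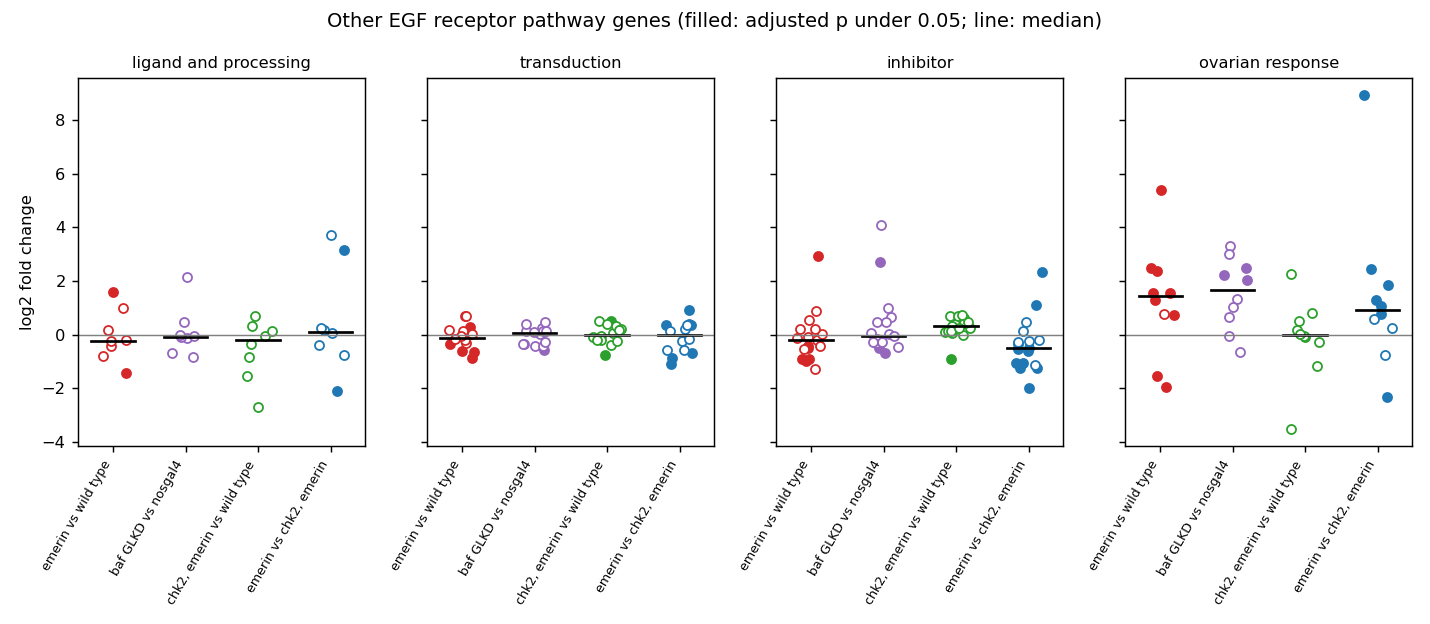
Log2 fold change (y axis) of further EGF receptor pathway genes in 4 lists (panels) and 4 comparisons (x axis), with filled points for adjusted p under 0.05 and black lines at the median. The list headed ovarian response, not split by direction of response, has its median at 1.42 in emerin and 1.68 in baf GLKD. The medians of the other 3 lists in emerin against wild type lie between -0.23 and -0.13.

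The genes whose levels ran most like those of the members over the 18 libraries were found by Pearson correlation of log2(CPM + 0.5) among 9159 genes with a mean of at least 1 CPM. For stet these were Boot and CG6927 (both r = 0.99), for vn Ih and nrm (both r = 0.98), for spi CG18766 (r = 0.96) and CG34325 (r = 0.93), and for rho Nepl19 (r = 0.95) and CG32694 (r = 0.94). For pnt they were PolG1 and JIL-1 (both r = 0.95), for kek1 CG12236 and mub (both r = 0.92), for Egfr Lrrk (r = 0.92) and XNP (r = 0.91), and for aos CG31370 (r = 0.91) and CG31436 (r = 0.90). Krn had the lowest best match, CAHbeta (r = 0.81) before CG4404 (r = 0.80). These values describe genes across libraries that share genotype, preparation and depth, and carry no test.

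The members lie on 4 chromosome arms in the BDGP6 assembly (dm6), with positions from the BDGP6.54 annotation. Egfr (FBgn0003731) spans 21522420 to 21559977 of arm 2R. On arm 2L lie spi (FBgn0005672, 19567900 to 19577315) and kek1 (FBgn0015399, 12817000 to 12822787), and on 3R pnt (FBgn0003118, 23290231 to 23346167). Arm 3L holds rho (FBgn0004635, 1463811 to 1468944), stet (FBgn0020248, 1475438 to 1489547), vn (FBgn0003984, 5813338 to 5845664), aos (FBgn0004569, 16470386 to 16483650) and Krn (FBgn0052179, 17649562 to 17654280). The values are for whole genes with all their exons and untranslated regions.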

How the data were processed

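The authors trimmed paired reads (Trim Galore 0.6.6 in the submitters' processing notes), estimated transcript abundance with kallisto 0.46.1 on BDGP6 and used tximeta for gene-level summaries. Estimated counts were deposited for genes as whole numbers, not scaled for library size, over 14237 genes. The deposited transcript tables hold estimated counts and TPM for 30944 transcripts, 133 of which matched no gene here. The main input was the gene table, because in 7 libraries its total is 7.42 to 18.87 times that of the transcript table.

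Symbols and positions come from BDGP6.54. Genes with under 10 counts over all libraries were left out (1475, of which 394 at 0), leaving 12762. Counts were fitted with edgeR 4.0.16 (TMM, quasi-likelihood F test, R 4.3.3) over all 18 libraries, with 5 group coefficients, or 7 genotype coefficients for G/PI against G/PK and CS against yw. SE is the log2 fold change divided by the root of F. The calculation was tested on simulated counts. Libraries of a genotype differed beyond sampling noise (chi-square per degree of freedom 16.4 to 204.1). From each list the 3 genes with the smallest adjusted p in emerin are named, and others singled out, such as grk, were chosen after their values were seen. Members and lists were chosen with earlier results of these data known. Alternatives used DESeq2 1.42.0, RLE, library size, other filters, blocks, references and libraries left out in turn. Tables and figures used Python 3.11.15, pandas 2.3.3 and matplotlib 3.10.9. The transcript tables' length columns were not used as measurements.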

Additional observations from a re-analysis of the deposited data

How the results depend on the processing

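Over 48 results for single members, 1461 comparisons with an alternative kept direction and call in 1358, lost the call in 52, gained it in 29 and changed direction in 22, none of the last with a call on either side. The emerin calls of 4 members held in all 33 alternatives, vn at 1.86 to 3.02, stet at -3.86 to -1.89, kek1 at -1.85 to -1.42 and pnt at -1.05 to -0.67 on the log2 scale. Where not stated, the cause of a change was not tested.

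In emerin against wild type, Egfr was 0.01 against yw alone, and Krn was -0.04 in the matching libraries, -0.05 from transcript tables, -0.12 against yw alone, -0.01 with G/PK alone and -0.04 to 0.15 with a library left out. In baf GLKD against nosgal4, Krn was -0.05 and kek1 0.36 in the matching libraries, and with a library left out Krn ran from -0.06 to 0.30, kek1 from -1.18 to 0.26 and Egfr from -0.18 to 0.16. In chk2, emerin against wild type, vn was 0.50 and rho 0.46 against yw alone, stet was 0.16 with the library set as a block and 0.09 against CS alone, and aos was 0.17 in the matching libraries, 0.05 from transcript tables, 0.22 against CS alone and -0.15 to 0.06 with a library left out.

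Counts of members called changed as follows. Of 7 in emerin, 4 were called with G/PI alone, which leaves 2 emerin libraries, and 5 to 8 were called with a library left out. For baf GLKD the count of 2 was 4 with DESeq2, 1 with library size only, 0 in the matching libraries (1 a group) and 0 to 3 with a library left out. For chk2, emerin the count of 1 was 2 with DESeq2, library size only or yw alone, 3 with 7 genotype coefficients and 0 to 2 with a library left out. For G/PI against G/PK the count of 1 was 2 with DESeq2, 0 in the matching libraries or with only those groups, and 0 to 1 with a library left out. For CS against yw the count of 3 was 5 with DESeq2, 0 from transcript tables and 0 to 5 with a library left out. It was 1 with only those groups, where Egfr, vn and rho were not called and stet was. The count of 0 was 1 for nosgal4 against CS alone and 1 for the difference of effects with G/PK alone (0 to 1 with a library left out).

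Counts over all genes moved more. For baf GLKD 2749 became 1378 in the matching libraries, 1815 from transcript tables and 955 to 3138 with a library left out. For chk2, emerin 967 became 1933 with DESeq2, 496 from transcript tables, 313 with only those groups, 1759 with 7 coefficients, 1626 against CS, 1800 against yw and 172 to 1241 with a library left out. For G/PI against G/PK 89 became 242 with DESeq2, 55 with the library set as a block, 3 in the matching libraries, 2 with only those groups and 1 to 367 with a library left out. For CS against yw 1586 became 401 in the matching libraries, 935 from transcript tables, 701 with only those groups and 897 to 1912 with a library left out. For nosgal4 25 became 252 with DESeq2, 16 with library size only, 217 in the matching libraries, 10 from transcript tables, 4 with only those groups, 232 with 7 coefficients, 1004 against CS, 39 against yw and 7 to 32 with a library left out. For the difference of effects 6 became 130 with DESeq2, 127 in the matching libraries, 3 from transcript tables or with only those groups, 118 with 7 coefficients, 218 against CS, 19 against yw, 1 with G/PI, 100 with G/PK and 1 to 44 with a library left out.

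With the replicate number as a block, the counts over all genes were 6792 for emerin, 2682 for baf GLKD, 825 for chk2, emerin, 77 for G/PI against G/PK, 942 for CS against yw, 15 for nosgal4 and 2 for the difference of effects, and every count of members was as without it. Same-numbered libraries deviated together with r = 0.539 in baf GLKD and nosgal4 and 0 in both emerin combinations. In CS and yw r was 0.061, 0.44 and 0.139, and 3 of 6 libraries correlated best with their own number. The numbers were not taken as pairs. With 2 libraries a group the deviations mirror each other, so 0.539 and 0 are single values that cannot decide on pairing. In baf GLKD and nosgal4 replicate 1 of each also had the reduced transcript table. With library size only, the calls of baf GLKD were 1819 higher and 444 lower (main 1692 and 1057), those of CS against yw 1168 and 391 (main 813 and 773) and those of chk2, emerin 253 and 923 (main 360 and 607). Over all genes the median log2 value was then 0.29 in baf GLKD (main 0.11), 0.16 in CS against yw (main 0.01) and 0.39 in emerin against chk2, emerin (main 0.25). With DESeq2, nosgal4 had 70 higher and 182 lower (main 17 and 8), and the difference of effects had 69 and 61 (main 2 and 4, and 0 and 5 with library size only).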
